A study of Rattus norvegicus with 24 samples.

Results

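The effect of self-administered heroin on RNA of the nucleus accumbens (NAc) was set against the effect of injected heroin. For each gene the value is a difference of differences, Heroin-SA less Saline-SA, less the difference between Saline-Heroin and Saline-Saline. The 4 groups held 4 RNA-seq libraries each, 16 of the 24 libraries of the series. Of 32545 genes, 15151 had a mean of at least 0.5 FPKM over these 16 libraries and were tested; FPKM is the number of fragments of a gene scaled by its length and by the size of the library. The tested genes were taken by level alone, and those named were picked by their p-value in the difference or as members of gene lists. All rats were adult male Sprague Dawley, 8 weeks old on arrival. Heroin-SA rats took heroin through a jugular catheter at 0.075 mg/kg per infusion, 6 h a day in 10 daily sessions, and Saline-SA rats took saline in the same way. Both of these groups were killed straight after the last session. Saline-Heroin rats were given intraperitoneal heroin for 5 days at daily doses rising from 1 to 5 mg/kg, and Saline-Saline rats were given saline. Both injected groups had first received 5 injections of saline as the control for an immune pretreatment, and they were killed about 1 h after the last injection. The study's methods place the self-administering rats on a reversed light cycle and the injected rats on a normal one, with a short locomotor test after the last injection. They also keep the self-administering rats singly after surgery and the injected rats in pairs. Route, dose, number of days, surgery, housing, light cycle, the locomotor test and the time from drug to death therefore cannot be told apart in the difference between the experiments. The labels call the 4 libraries of a group biological replicates.

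Heroin is turned in the body into morphine and related opioids that act on the µ opioid receptor, and the NAc, made up mostly of GABAergic medium spiny neurons, is where opioid reward and drug seeking converge. Self-administration adds operant responding and drug delivery timed by the rat to the drug itself, whereas an injection comes at the hand of the experimenter. Chaperones are proteins that help others fold. Those of the endoplasmic reticulum serve secreted and membrane proteins and are induced together by the unfolded protein response, those of the cytosol are induced by heat shock factor, and the RNA-binding proteins Cirbp and Rbm3 are known for rising when cells are cooled.

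Reads on genes numbered 12312878 to 18288437 per library. The share of mitochondrial reads was 10.03% to 11.77% in Heroin-SA, 10.73% to 15.88% in Saline-SA, 7.651% to 8.677% in Saline-Heroin and 6.817% to 8.638% in Saline-Saline, so no library of one experiment reached the range of the other. Saline-SA replicates 3 and 4 had the highest shares, and results were also computed without both. The control groups themselves stood apart: 4155 genes, 27.4% of those tested, differed between Saline-SA and Saline-Saline at a limma adjusted p under 0.05. Saline-Saline replicate 1 held choroid plexus RNA, with 318 FPKM of the plexus marker Ttr against 0.188, 0.0 and 5.35 in the other 3 libraries of its group. Markers of medium spiny neurons, the main cells of the NAc, were present: the summed level of 15 of them was 1390 to 3620 FPKM over the libraries. The median of this sum was 2810 in Saline-SA and 2700 in Heroin-SA, against 1770 in Saline-Saline and 2000 in Saline-Heroin. None of the 15 was called in any of the 3 comparisons below, although 4 were called lower in the difference without Saline-Saline replicate 3 (median -0.33 against -0.13). All 15 had a positive injection effect, and 13 had a negative difference.

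A gene was called in a comparison when its unadjusted p was at most 0.05 and its change at least 1.3-fold on the log2(FPKM + 0.1) scale. By this rule 664 genes, 4.38% of those tested, differed between the heroin effects of the 2 experiments. The effect was more positive with self-administration in 400 of them (2.64%) and more negative in 264 (1.74%). Unadjusted p fell under 0.05 for 993 genes, where 5% of the genes tested is 758. None passed a Benjamini-Hochberg adjusted p of 0.05 in limma, the smallest adjusted value was 0.285, and limma-voom on the recovered reads also gave 0. Adjusted p-values below are from this limma fit, and none of the genes named passes once all genes tested are counted. Where the 4 libraries of a group and those of its control did not overlap, the two-sided exact permutation p was 0.0286, the smallest that 4 against 4 allows.

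The 2 heroin effects were themselves unequal in size. Heroin-SA differed from Saline-SA in 1001 genes, 620 higher (4.09%) and 381 lower (2.51%), and 13 genes passed the adjusted threshold, with a smallest adjusted p of 0.00837. Saline-Heroin differed from Saline-Saline in 463 genes, 195 higher (1.29%) and 268 lower (1.77%), none at an adjusted p under 0.05, and 927 genes had an unadjusted p under 0.05. Both comparisons called 61 genes, 6.09% of the self-administration list and 13.2% of the injection list, of which 52 moved the same way and 9 opposite ways. Across all 15151 genes the correlation of the effects was 0.115 by Pearson and 0.194 by Spearman, given as a description over genes that are not independent; the experiments share no library. Of the 13 genes that passed the adjusted threshold with self-administration, 11 were among the 664 that differed between experiments, beside 4.38% of all genes. The difference contains the self-administration effect from the same libraries, so this count is partly set by the choice of genes.

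The 664 genes were sorted by what each effect did. Effects of opposite sign, each at least 1.2-fold, were found for 197 genes, 103 of them higher and 94 lower with self-administration. A called effect of self-administration beside an injection effect that was under 1.2-fold with p over 0.05 was found for 220 genes, 145 higher and 75 lower. The mirror image, a called effect of injection alone, was found for 71 genes. In the other 176, the effects fell between these limits. Few of the opposite genes rested on firm values in both experiments: 9 had both effects called, 63 only that of self-administration, 41 only that of injection and 84 neither, and mean reads per library were under 20 for 83 of the 197, against 15 of the 220 and 7 of the 71. The control groups differed at an adjusted p under 0.05 in 60.9% of the 220 genes led by self-administration, 40.6% of the opposite genes and 31.0% of the 71 led by injection, beside 27.4% of all genes; these shares rest on the same control libraries as the classes do.

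**Figure D1:**
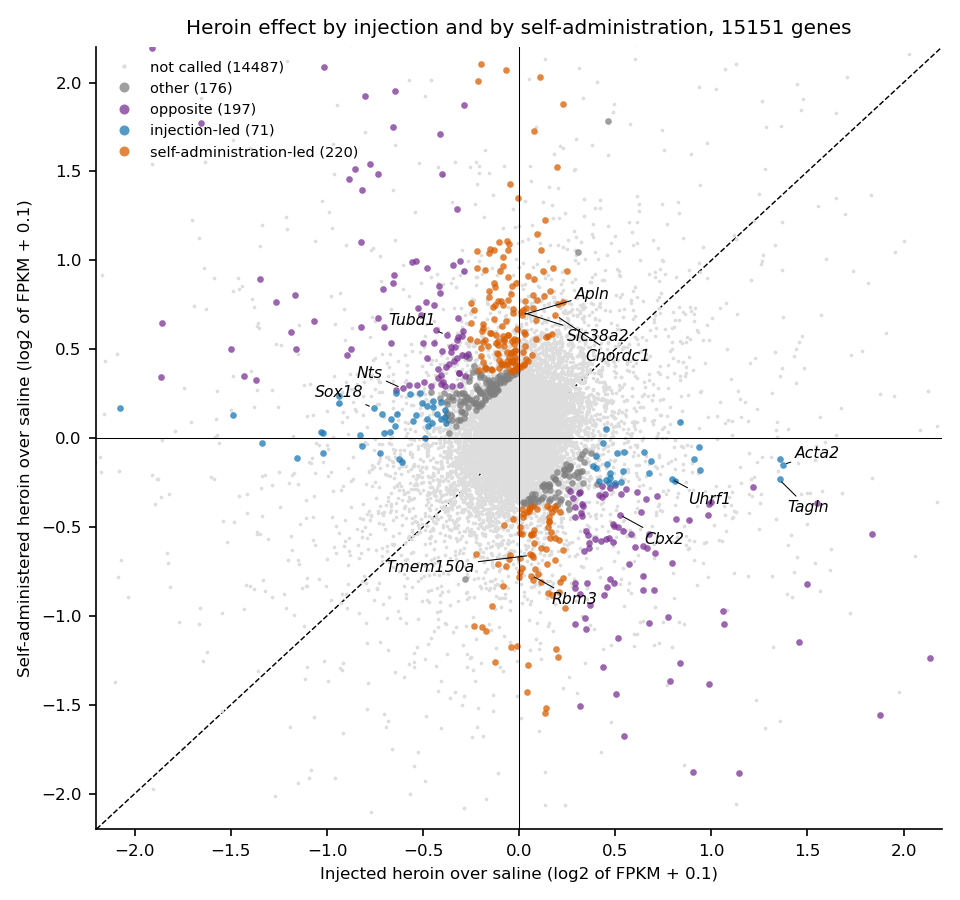
Heroin effect after injection (Saline-Heroin over Saline-Saline, horizontal) against the effect with self-administration (Heroin-SA over Saline-SA, vertical) for each of 15151 genes on the log2(FPKM + 0.1) scale, coloured by class; the dashed line marks equal effects and 127 genes lie outside the plotted range. The 220 self-administration-led genes lie above and below the centre, the 71 injection-led genes to its sides and the 197 opposite genes in the upper left and lower right.

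Slc38a2, a sodium-coupled transporter of neutral amino acids (ENSRNOG00000006305, chromosome 7, 138088649 to 138100841, minus strand, rn6), led the genes that moved with self-administered heroin. It stood at 50.2, 48.4, 45.0 and 57.3 FPKM in Heroin-SA against 28.6, 31.5, 29.5 and 32.6 in Saline-SA. After injection it was 33.7, 38.9, 44.2 and 40.0 FPKM with heroin and 36.5, 41.1, 37.6 and 39.8 with saline. The self-administration groups did not overlap and the injection groups did. The effect of heroin was 1.64-fold with self-administration and 1.01-fold after injection, a difference of 0.70 ± 0.12 (SE) on the log2 scale with adjusted p = 0.285. Slc38a2 was also the gene with the smallest adjusted p for self-administration alone, 0.00837. It is a target of the amino acid and integrated stress response. Of 17 tested genes of that response 1, Slc38a2 itself, was called in the difference, beside 4.38% of all genes. Atf4, the transcription factor at the centre of the response, had effects of 0.07 with self-administration and -0.15 after injection (log2). Asns, a classical target of Atf4, had 0.05 and -0.01 in that order. The median difference of the 17 genes was 0.03 beside 0.0128 for all genes tested. The part of this response in the Slc38a2 result was not tested.

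Apln, which encodes the peptide ligand of the apelin receptor (ENSRNOG00000003984, chromosome X, 134856726 to 134866210, minus strand), showed the same pattern. Heroin-SA libraries had 18.8, 17.2, 15.2 and 21.2 FPKM and Saline-SA libraries 11, 11, 11.4 and 11. Saline-Heroin had 11.7 ± 1.69 FPKM and Saline-Saline 11.5 ± 1.39 (SD, n = 4). Every Heroin-SA library thus lay above all 12 libraries of the other groups. The difference of effects was 0.68 ± 0.16 (SE, log2; adjusted p = 0.563). Apln is induced by hypoxia. Of 12 tested genes of a hypoxia and angiogenic list 2, Apln and Ndrg1, were called higher in the difference, against 2.64% of all genes. Ndrg1 differed by 0.59 ± 0.22 (adjusted p = 0.718), and by 0.56, not called, without Saline-SA replicates 3 and 4. Vegfa (0.19) and Pfkfb3 (0.08) were not called. The part of hypoxia in the Apln result was not tested.

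Pspc1, which had the next smallest p in this class after Slc38a2, encodes a protein of paraspeckles, nuclear bodies built on a long noncoding RNA. It was 11.2, 11.1, 9.97 and 10.3 FPKM in Heroin-SA and 15.4, 15.7, 17.6 and 13.6 in Saline-SA, below and without overlap, against 18.1 ± 1.06 in Saline-Heroin and 17.4 ± 0.261 in Saline-Saline (SD, n = 4). Its difference was -0.60 ± 0.11 (SE, log2; adjusted p = 0.285). Elavl3, a neuronal RNA-binding protein, was higher instead, at 39.2 ± 7.99 FPKM in Heroin-SA against 26.7 ± 1.33 in Saline-SA (SD, n = 4), with 56.5 and 52.1 as the means of Saline-Saline and Saline-Heroin. Even with heroin, then, all 4 self-administration libraries lay below the injected ones. The difference was 0.65 ± 0.15 (SE; adjusted p = 0.563), and a U4 RNA gene lies within the span of Elavl3 on the other strand. Rbm3, also of this class, is described with the cold-inducible genes below.

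For Tmem150a, Acat1 and Dusp19 the 4 groups were arranged differently. Tmem150a, a membrane protein linked to phosphoinositide synthesis, was highest in Saline-SA at 16.6 ± 1.36 FPKM, and Heroin-SA, at 10.5 ± 1.33 (SD, n = 4), lay beside the 2 injected groups at 11.3 and 10.8. Its difference was -0.72 ± 0.14 (SE; adjusted p = 0.335), and its span overlaps Rnf181 on the other strand, which the counting may not have kept apart. Acat1, a mitochondrial thiolase of ketone body and isoleucine breakdown, was alike in the 3 groups without self-administered heroin, at 39.0, 40.2 and 39.7 FPKM, and stood at 28.6 ± 2.53 in Heroin-SA, a difference of -0.47 ± 0.11 (SE; adjusted p = 0.563). Dusp19, a dual-specificity phosphatase, was lowest in Saline-SA, at 8.61 FPKM against 12.6 in Heroin-SA, 13.8 in Saline-Heroin and 14.1 in Saline-Saline, and differed by 0.58 ± 0.14 (SE; adjusted p = 0.563). So in Acat1 the heroin group stands away from the other 3 groups, and in Tmem150a and Dusp19 the control group of the self-administration experiment does.

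**Figure D2:**
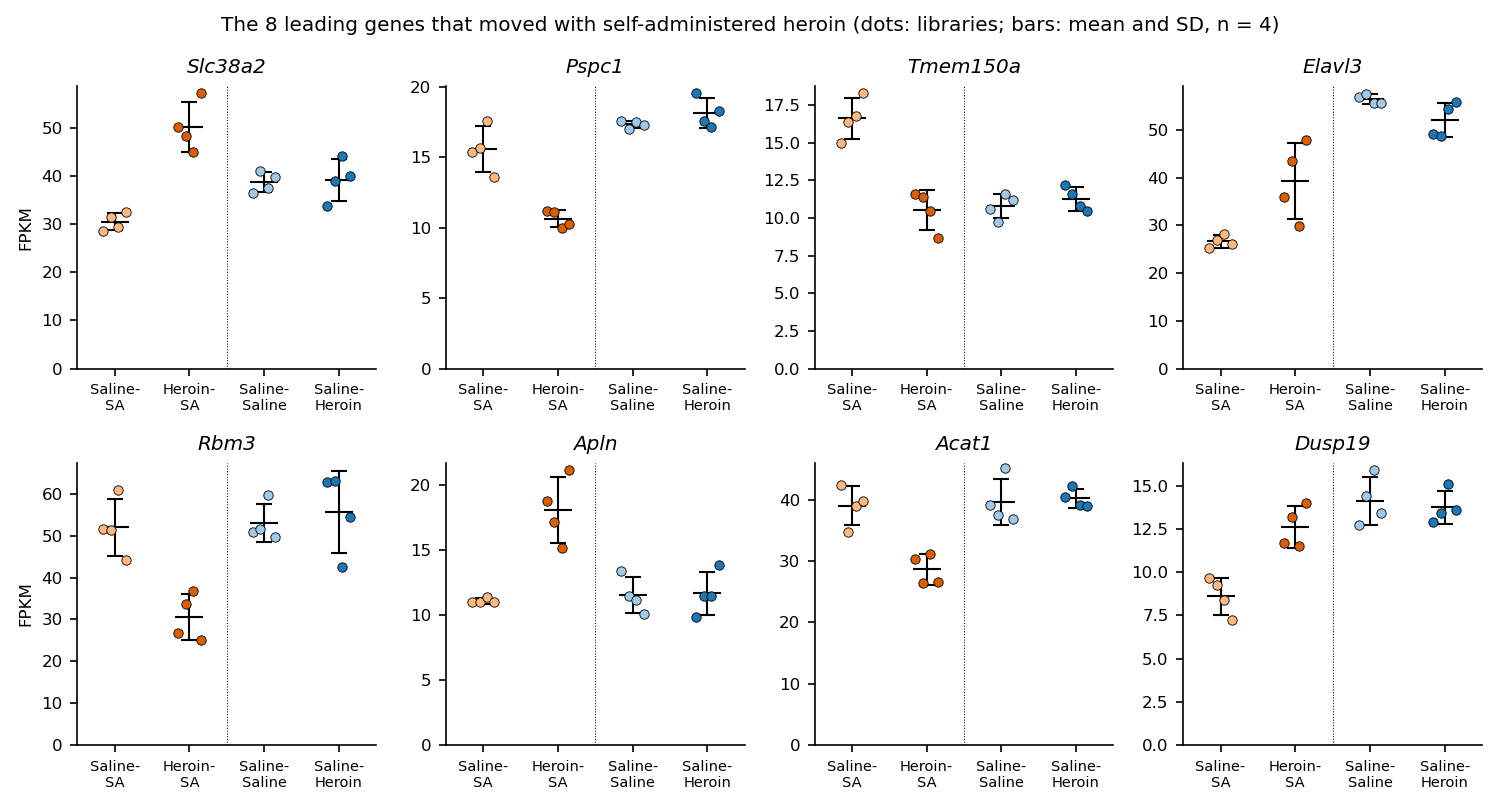
FPKM in each library (dots) with mean and SD (bars, 4 libraries per group) for the 8 genes of smallest p among those led by self-administration; the dotted line separates the 2 experiments and every axis starts at 0. Heroin-SA and Saline-SA do not overlap in any panel, while Saline-Heroin and Saline-Saline overlap in each. The class was formed on these same libraries, so this pattern is partly set by the choice of genes.

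Chaperones of the endoplasmic reticulum were higher in the difference in part. Of 16 tested genes on this list, 8 were called higher with self-administration, against 2.64% of all genes, and none lower. The difference was positive in all 16, where 52.2% of all genes were positive, and its median was 0.39 beside 0.0128. With self-administration alone the median effect was 0.35 with 5 genes called, and after injection it was -0.04 with none called. This direction for self-administration was already known from earlier results of these libraries when the list was drawn up, so the count is no independent evidence of it.

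Sdf2l1, a partner of the chaperone BiP, had the widest difference on the list. Heroin-SA libraries held 21.1, 17.3, 22.5 and 28.4 FPKM and Saline-SA libraries 14.3, 12.6, 12.9 and 15.5. Saline-Heroin held 9.01, 11.5, 14.2 and 9.73, and Saline-Saline 9.98, 13, 11.8 and 13.6. The groups separated in the first experiment and overlapped in the second, with a difference of effects of 0.80 ± 0.22 (SE, log2; adjusted p = 0.663). Calr, a calcium-binding chaperone of glycoproteins and the most abundant of those called, was 294 ± 24.6 FPKM in Heroin-SA and 227 ± 13.8 in Saline-SA, without overlap and just under 1.3-fold, and it was 219 ± 18.6 with injected heroin against 230 ± 16.5 with saline (SD, n = 4). Its difference was 0.44 ± 0.11 (SE; adjusted p = 0.563). Hspa5, which encodes BiP itself, was 133 FPKM in Saline-SA, 177 in Heroin-SA, 155 in Saline-Saline and 157 in Saline-Heroin, a difference of 0.40 ± 0.18 (adjusted p = 0.751).

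The other 5 called members span folding enzymes and the pathway's own regulator. Pdia6 (0.46, adjusted p = 0.67) and Pdia4 (0.41, adjusted p = 0.751) are disulfide isomerases. Hyou1 (0.45, adjusted p = 0.669) is a large chaperone that exchanges nucleotide for BiP, and Dnajc3 (0.50, adjusted p = 0.75) is a BiP co-chaperone that restrains the kinase PERK. Xbp1 (0.50, adjusted p = 0.691) is the transcription factor whose spliced form drives many of these genes, and splicing was not measured here. Just under the fold limit lay Hsp90b1, at 0.37 with an unadjusted p under 0.05, and 11 of the 16 genes had an unadjusted p of at most 0.05. Herpud1 was nearest to no difference, at 0.03. In Hyou1, Hspa5, Pdia6 and Dnajc3 the Saline-SA mean (27.9, 133, 64.4 and 8.13 FPKM) lay below that of Saline-Saline (34.9, 155, 77.8 and 12), and the Heroin-SA mean (35.6, 177, 86.7 and 11) was nearer to it or above.

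Which genes on this list passed was less firm than the direction. The count of calls ran from 4 without Heroin-SA replicate 4 to 10 without Saline-Heroin replicate 3 or Saline-SA replicate 4, and the median from 0.31 to 0.47. It was 5 without Saline-SA replicate 1 or 2, Saline-Saline replicate 2 or Saline-Heroin replicate 1. Without Saline-SA replicates 3 and 4 it was 10 with a median of 0.45, and quantile normalization gave 6. The calls of Hspa5 and Pdia4 were lost in 11 and 13 of 27 alternative settings, that of Dnajc3 in 6 and those of Calr, Sdf2l1 and Xbp1 in none; with 1 library left out Hspa5 differed by 0.32 to 0.54, Pdia4 by 0.33 to 0.53 and Dnajc3 by 0.35 to 0.60. Pdia6 left the call without Saline-SA replicates 3 and 4 (0.35) and Hyou1 without Heroin-SA replicate 4 (0.37). Mean reads per library ran from 236 for Sdf2l1 to 6790 for Calr over the 8 genes.

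**Figure D3:**
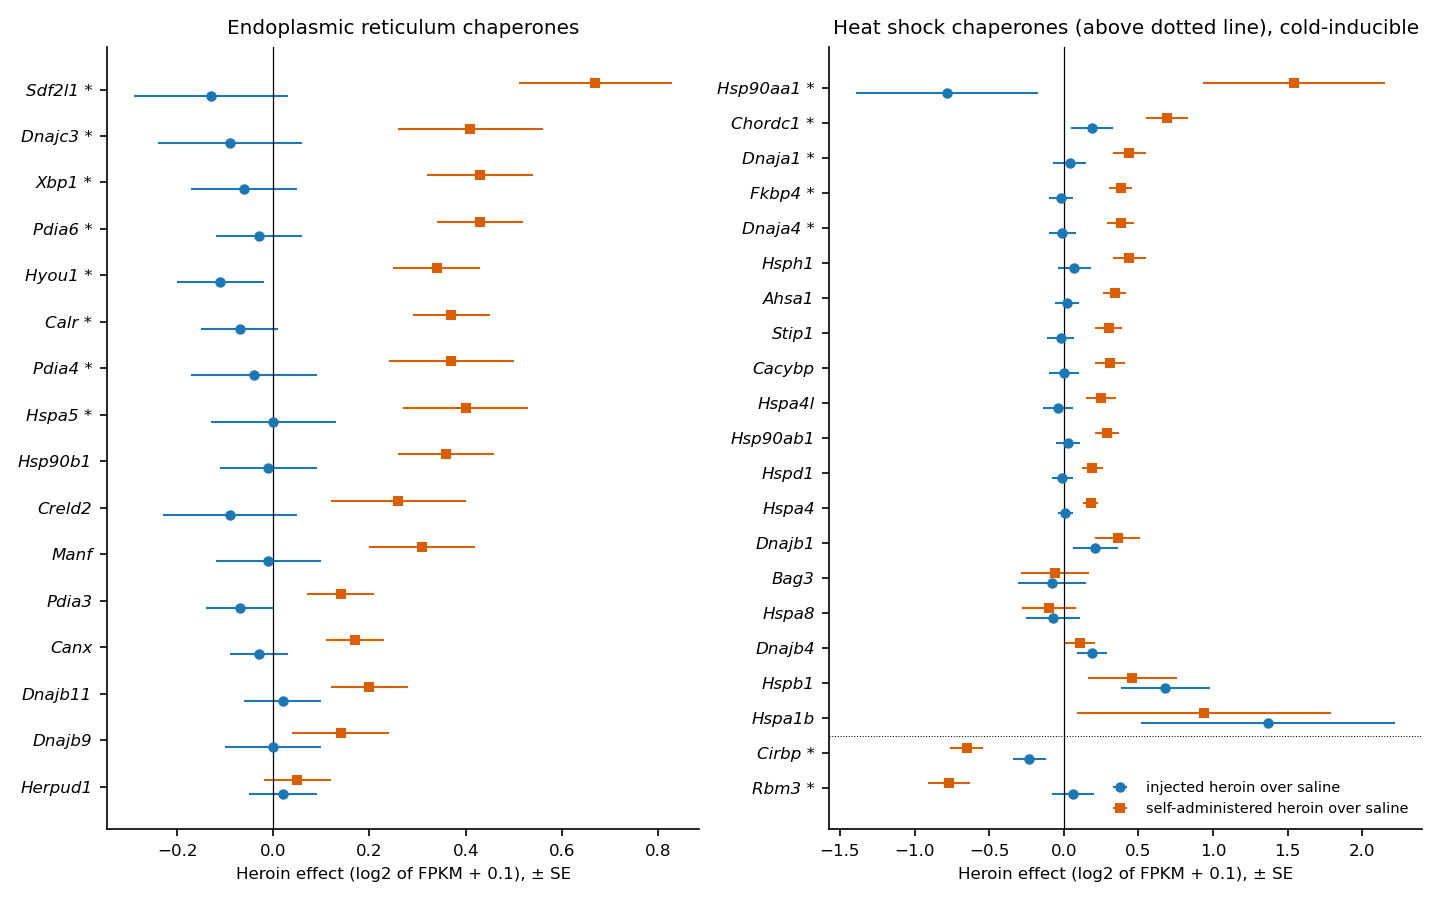
Heroin effect with its SE on the log2(FPKM + 0.1) scale for each tested endoplasmic reticulum chaperone (left) and for heat shock chaperones and the 2 cold-inducible genes (right), self-administered in orange squares and injected in blue circles; an asterisk marks genes called in the difference. All 16 genes on the left have their square to the right of their circle, and Cirbp and Rbm3 have it to the left.

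Promoters of 3 called members are shown because 8 genes of this list were called in 1 direction. RefSeq windows of 300 bases, GRCr8, were matched by symbol for 13 of the 16 endoplasmic reticulum genes (14 windows), without Pdia3, Pdia6 and Manf. They were searched on both strands for the endoplasmic reticulum stress element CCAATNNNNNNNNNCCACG (in reverse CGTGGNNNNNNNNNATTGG) and for its short form ATTGGNCCACG (in reverse CGTGGNCCAAT). The first was found in 7 of the 14 windows, those of Calr, Canx, Creld2, Dnajc3, Hsp90b1, Hspa5 and Xbp1, against 22 of 33469 promoter windows of the genome (0.0657%). The short form was found in 3, those of Dnajb11, Herpud1 and Hyou1, against 0.0508% of all windows. Canx, Creld2, Hsp90b1, Dnajb11 and Herpud1 hold an element and were not called, and Sdf2l1 and Pdia4 were called without one in this window. In the 3 windows printed here, chr3:38452766-38453065 for Hspa5, chr19:40213117-40213416 for Calr and chr14:84604373-84604672 for Xbp1, all on the plus strand, the fixed letters of the element are in capitals.
Hspa5: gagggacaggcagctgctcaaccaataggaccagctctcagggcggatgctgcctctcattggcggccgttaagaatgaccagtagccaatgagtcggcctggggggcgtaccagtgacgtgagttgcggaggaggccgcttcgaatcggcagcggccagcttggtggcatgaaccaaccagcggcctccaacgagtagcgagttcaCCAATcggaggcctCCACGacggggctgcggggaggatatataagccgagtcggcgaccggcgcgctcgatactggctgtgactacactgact
Calr: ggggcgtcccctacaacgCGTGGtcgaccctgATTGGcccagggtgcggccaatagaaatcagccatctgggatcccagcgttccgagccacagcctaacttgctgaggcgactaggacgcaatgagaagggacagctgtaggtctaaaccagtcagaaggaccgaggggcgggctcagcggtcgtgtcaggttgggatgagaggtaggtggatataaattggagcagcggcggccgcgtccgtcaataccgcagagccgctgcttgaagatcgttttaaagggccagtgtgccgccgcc
Xbp1: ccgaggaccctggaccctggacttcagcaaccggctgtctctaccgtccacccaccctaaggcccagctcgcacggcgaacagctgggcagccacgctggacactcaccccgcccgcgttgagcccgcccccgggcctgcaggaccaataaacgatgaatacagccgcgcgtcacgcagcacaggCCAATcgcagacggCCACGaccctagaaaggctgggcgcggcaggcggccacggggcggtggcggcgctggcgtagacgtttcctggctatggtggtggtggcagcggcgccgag

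Heat shock chaperones, those of the cytosol together with the mitochondrial chaperonins Hspd1 and Hspe1, went the same way in part. Of 19 tested, 5 were called higher (Hsp90aa1, Chordc1, Dnaja1, Fkbp4 and Dnaja4), against 2.64% of all genes, and none lower, and 10 had an unadjusted p of at most 0.05. The median difference was 0.28, from a median effect of 0.34 with self-administration and 0.01 after injection. Saline-SA had the lowest summed level of the list, 1450 to 1520 FPKM, against 1710 to 2110 in Heroin-SA. The sum was 1600 to 2010 in Saline-Heroin and 1590 to 1760 in Saline-Saline. Dnaja1 was 139 FPKM in Saline-SA, below 190 in Heroin-SA, 187 in Saline-Heroin and 181 in Saline-Saline. In Fkbp4, by contrast, the Saline-SA mean (68.9) lay above that of Saline-Saline (65.9). Fkbp4, a co-chaperone of steroid receptors, was 91.3, 83.2, 86.3 and 97.5 FPKM in Heroin-SA and 66.9, 64.4, 71.8 and 72.7 in Saline-SA. Its injected groups were 65.0 ± 4.83 with heroin and 65.9 ± 5.76 with saline (SD, n = 4). The self-administration groups did not overlap and the injected ones did, with effects of 0.38, just under 1.3-fold, and -0.02 and a difference of 0.40 ± 0.11 (SE; adjusted p = 0.663). Chordc1, a co-chaperone of Hsp90, stood at 33.3 ± 4.12 FPKM in Heroin-SA and 20.5 ± 1.55 in Saline-SA (SD, n = 4). In Saline-Heroin 3 libraries were at 20.8 to 22.7 and replicate 3 at 35.1, and the difference was 0.51 ± 0.20 (adjusted p = 0.721).

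Of the members not called, Hspa1b had effects of 0.94 with self-administration and 1.37 after injection, Hspb1 0.46 and 0.68, and Dnajb1 0.36 and 0.21, and their differences were -0.42 ± 1.2, -0.22 ± 0.43 and 0.15 ± 0.21 (SE). Hsp90aa1 (2.32, adjusted p = 0.718) had a mean of 32.8 reads per library, has near-identical copies and a span that overlaps RGD1305298 and Dync1h1, and is uncertain. Without Heroin-SA replicate 4 or Saline-Heroin replicate 4 the list had 2 calls, as it did without Saline-SA replicates 3 and 4, where Chordc1 (0.44) and Hsp90aa1 (1.63) were among those lost. Over 27 settings Dnaja1 and Fkbp4 lost the call in 7 each and Dnaja4 in 11. The list had 3 calls without Saline-Saline replicate 2 or 4 or Saline-Heroin replicate 1, or with equal medians, and 9 without Saline-Heroin replicate 3. Windows were matched for 18 of the 21 listed genes, without Hspa1b, Hsp90aa1 and Dnajb4. The heat shock element, searched as GAANNTTCNNGAA and TTCNNGAANNTTC, which overlap when units repeat, was found in 6 of these 18 (Chordc1, Dnaja1, Hspa8, Hspd1, Hspe1 and Hsph1), against 0.798% of all windows; the windows of Hspd1 and Hspe1 overlap and hold the same element on opposite strands. Hspa8, Hspd1, Hspe1 and Hsph1 hold an element and were not called, and Fkbp4 and Dnaja4 were called without one in this window. The reads of Hspa8, a gene with many copies like Hsp90aa1, are uncertain. The windows of Chordc1 (chr8:23650571-23650870) and Dnaja1 (chr5:60638154-60638453), both on the plus strand of GRCr8, are given with the fixed letters in capitals. In both, the element lies after the start site.
Chordc1: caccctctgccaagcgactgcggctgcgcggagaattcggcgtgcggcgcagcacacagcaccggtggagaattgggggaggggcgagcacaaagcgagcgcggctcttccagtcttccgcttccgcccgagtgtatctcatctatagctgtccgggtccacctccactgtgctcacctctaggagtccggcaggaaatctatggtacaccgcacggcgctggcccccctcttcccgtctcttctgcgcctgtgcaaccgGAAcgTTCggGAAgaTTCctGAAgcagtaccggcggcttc
Dnaja1: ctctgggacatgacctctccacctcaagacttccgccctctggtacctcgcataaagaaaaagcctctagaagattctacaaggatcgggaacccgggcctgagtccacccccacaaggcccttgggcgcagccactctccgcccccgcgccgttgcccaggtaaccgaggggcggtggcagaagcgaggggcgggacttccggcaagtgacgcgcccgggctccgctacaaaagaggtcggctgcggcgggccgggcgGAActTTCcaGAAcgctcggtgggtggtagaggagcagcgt

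Both cold-inducible genes were lower with self-administration. Rbm3 (ENSRNOG00000005387, chromosome X, 15098904 to 15102340, plus strand) was 26.8, 33.6, 36.7 and 25.1 FPKM in Heroin-SA against 51.7, 51.3, 60.8 and 44.1 in Saline-SA. It was 62.9, 63.1, 42.4 and 54.4 in Saline-Heroin and 50.8, 51.6, 59.7 and 49.7 in Saline-Saline. Heroin-SA libraries lay below all others, and the difference was -0.83 ± 0.20 (SE, log2; adjusted p = 0.563). Cirbp was 31.3 ± 4.23 FPKM in Heroin-SA and 49.1 ± 4.80 in Saline-SA, 51.8 ± 7.79 in Saline-Heroin and 60.1 ± 3.12 in Saline-Saline (SD, n = 4). Its effect was -0.65 with self-administration and -0.23 after injection, the same sign in both, with a difference of -0.42 ± 0.16 (adjusted p = 0.718). That difference left the call without Heroin-SA replicate 4, at -0.37, or Saline-Heroin replicate 2, at -0.34.

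Among the opposite genes Hist1h2bg, a histone H2B gene (ENSRNOG00000021198, chromosome 17, 43679925 to 43689311, minus strand), had the smallest p. It was 44.4, 46.5, 33.3 and 46.0 FPKM in Heroin-SA against 28.0, 28.7, 28.3 and 31.5 in Saline-SA, and 26.5, 24, 33.6 and 32.3 in Saline-Heroin against 46.5, 38.5, 41.9 and 31.7 in Saline-Saline. The means were 42.6 and 29.1 FPKM in the first experiment and 29.1 and 39.7 in the second, a mirror image with a difference of 0.98 ± 0.19 (SE, log2; adjusted p = 0.339). Both effects were called, 1.45-fold and 0.735-fold. Histone genes of this family are near-identical and this one overlaps an unnamed gene on the other strand, so its reads are uncertain.

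Tubd1 and Cbx2 separated completely in both experiments. Tubd1, the delta-tubulin of centrioles, was 2.75, 2.23, 2.51 and 2.84 FPKM in Heroin-SA and 1.71, 1.54, 2.16 and 1.42 in Saline-SA. In the injected rats it was 2.46, 2.41, 2.96 and 2.64 with heroin and 3.55, 3.41, 3.39 and 3.33 with saline. The difference was 0.96 ± 0.20 (adjusted p = 0.44), with a mean of 56.0 reads per library. Cbx2, a subunit of Polycomb repressive complex 1, took the reverse course: 2.57, 2.41, 2.40 and 2.70 FPKM in Heroin-SA below 3.76, 3.09, 3.27 and 3.67 in Saline-SA, and 1.89, 1.85, 3.05 and 2.15 in Saline-Heroin above 1.42, 1.71, 1.70 and 1.2 in Saline-Saline. Its difference was -0.96 ± 0.23 (adjusted p = 0.563). In both genes the 2 heroin groups lay nearer to each other than the 2 control groups did.

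The remaining 5 leaders of this class divided by direction. Positive differences belonged to Tmc7, a transmembrane channel-like protein (0.90, adjusted p = 0.563), Slc31a2, a copper transporter (0.75, adjusted p = 0.563), and Tsr2, a ribosome maturation factor (1.25, adjusted p = 0.563). Slc31a2 was lower in Saline-Heroin (3.16 ± 0.263 FPKM) than in Saline-Saline (4.42 ± 0.692; SD, n = 4), while the self-administration means of 4.23 with saline and 5.20 with heroin were under 1.3-fold apart. Tsr2 was 3.15 FPKM in Heroin-SA against 1.81 in Saline-SA and 3.03 in Saline-Heroin against 4.08 in Saline-Saline, and its span overlaps an unnamed gene on the other strand. Negative differences belonged to Cryl1, a crystallin-like enzyme of glucuronate metabolism (-0.74, adjusted p = 0.563), and Cryga, a crystallin of the lens (-1.19, adjusted p = 0.617). Cryl1 fell from 9.93 ± 1.07 to 7.34 ± 1.33 FPKM in one experiment, and in the other it was 7.75 ± 0.354 with saline and 9.54 ± 1.03 with heroin (SD, n = 4), an injection effect of 0.29 that was under the fold limit. Cryga had a mean of 34.0 reads and an injection effect of 0.32 that was under 1.3-fold, so only its self-administration side was called.

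**Figure D4:**
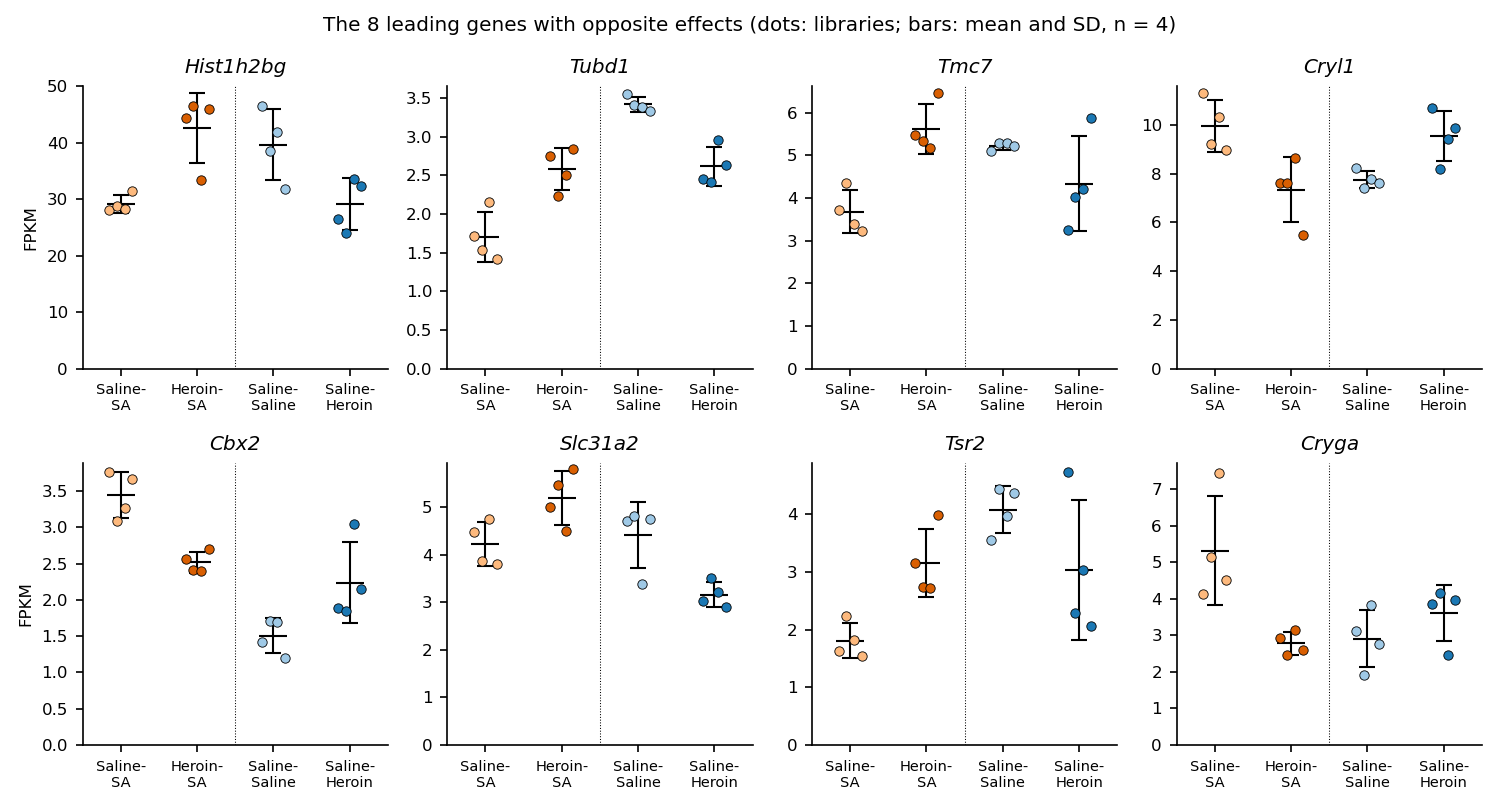
FPKM in each library (dots) with mean and SD (bars, 4 libraries per group) for the 8 opposite genes of smallest p; the dotted line separates the 2 experiments and every axis starts at 0. In Tubd1 and Cbx2 heroin and saline libraries do not overlap in either experiment, and the directions are reversed between them.

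Members of the gene lists that fell in the opposite class had weaker support. Nts, the neuropeptide neurotensin, was 28.9 ± 5.19 FPKM in Heroin-SA and 24.4 ± 8.73 in Saline-SA, and 17.7 ± 5.35 in Saline-Heroin and 26.7 ± 7.05 in Saline-Saline (SD, n = 4), a difference of 0.89 ± 0.35 (adjusted p = 0.721) in which only the injection side was called. It stood on the list of septum and ventral forebrain markers, of which 5 of 9 were called lower after injection, against 1.77% of all genes, and none with self-administration, against 2.51%. The median effect of the list was nonetheless negative in both experiments, -0.69 after injection and -0.54 with self-administration. With self-administration 8 of the 9 were negative, and Nts alone was called in the difference. The summed level of the list was 57.9 to 154 FPKM in Saline-Heroin and 90.8 to 233 in Saline-Saline. It was 64.7 to 76.3 FPKM in Heroin-SA and 57.8 to 149 in Saline-SA. The part of this list in the Nts result was not tested. Kcnj10, the inward rectifier of glia (0.74, adjusted p = 0.74), and Gjb6, a connexin of astrocytes (-0.71, adjusted p = 0.751), overlapped in both experiments and lost their call in 7 and 12 of 27 settings. Other astrocyte genes were not called, with differences of 0.11 for Aqp4, -0.24 for Gja1 and -0.04 for Gfap.

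Slco1c1, Sox18 and Rasgrp3, all found in endothelium, were among the 8 leaders of the injection class, and each was called lower with injected heroin. Slco1c1, the thyroid hormone transporter of brain endothelium (ENSRNOG00000009740, chromosome 4, 175729726 to 175776808, plus strand), was 14.7, 14.6, 14.7 and 16.9 FPKM in Saline-Heroin against 20.6, 20.8, 21.5 and 17.0 in Saline-Saline. In Heroin-SA it was 22.5, 22.8, 20.1 and 22 and in Saline-SA 18.9, 20.3, 22.2 and 19.3. Only the injected groups were separated, and the nearest libraries of these were 16.9 and 17.0. The difference of effects was 0.50 ± 0.12 (SE, log2; adjusted p = 0.563). Sox18, an endothelial transcription factor, was 2.49, 2.72, 2.06 and 2.89 FPKM in Saline-Heroin and 3.99, 5.21, 3.61 and 4.67 in Saline-Saline, with 4.88 ± 0.952 in Heroin-SA and 4.31 ± 0.700 in Saline-SA (SD, n = 4). The heroin effect on it was 0.592-fold after injection and 1.12-fold with self-administration (difference 0.92 ± 0.23, adjusted p = 0.563). Rasgrp3, a Ras activator found in endothelium, was 3.80 FPKM with injected heroin and 5.27 with saline, beside 4.74 and 4.16 with self-administration, and its injected groups overlapped (0.66, adjusted p = 0.663).

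These 3 genes were not on the list of endothelial markers. Of 9 tested endothelial markers only Flt1, a VEGF receptor, was called in the difference (0.50 ± 0.19, adjusted p = 0.718), and it left the call without Heroin-SA replicate 4, at 0.38. Cldn5 differed by -0.08, Tek by -0.06 and Vwf by -0.11, and the median of the list was -0.04. None of the 9 was called after injection, where their median effect was -0.03. The summed level of these markers was 110 to 137 FPKM in Saline-Heroin and 121 to 138 in Saline-Saline. In bulk tissue, fewer cells of a type and less RNA per cell cannot be told apart.

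Smooth muscle genes went the other way. Tagln and Acta2, actin-binding and actin proteins of vascular smooth muscle, were called at -1.58 ± 0.60 (adjusted p = 0.721) and -1.53 ± 0.63 (adjusted p = 0.73). Acta2 was 16.5, 32.1, 6.89 and 9.44 FPKM in Saline-Heroin and 2.95, 3.94, 4.94 and 12.7 in Saline-Saline, overlapping, against 8.37 to 12.8 in Heroin-SA and 9.24 to 16.1 in Saline-SA. Tagln followed the same libraries, with 60.1 FPKM in Saline-Heroin replicate 2 and 24.9 in Saline-Saline replicate 4, and its span overlaps Sidt2. Of the 11 tested fibroblast and mural genes 10 had a negative difference, with a median of -0.86 and a median injection effect of 0.71. The 2 called lower became 7 without Saline-Saline replicate 4 (median -1.37), 1 without Saline-SA replicate 4, Saline-Saline replicate 1 or 2 or Saline-Heroin replicate 2, and 0 without Saline-SA replicates 3 and 4 (median -0.60). Rgs5, a pericyte gene, was the exception at 0.52 (adjusted p = 0.73). The summed level of the list was 90.4 to 165 FPKM in Saline-Heroin, 58.3 to 126 in Saline-Saline, 93.1 to 118 in Heroin-SA and 91.0 to 135 in Saline-SA. Haemoglobin and Alas2, the 4 red blood cell markers tested, had a median injection effect of 0.79 and none was called after injection or in the difference; in the difference 3 were called lower with the replicate block, 2 without Heroin-SA replicate 4 and 1 without Saline-SA replicate 1. The call of Acta2 was lost in 9 of 27 settings, that of Rgs5 in 10 and that of Tagln in 1, at -1.24 without Saline-SA replicates 3 and 4.

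The other 5 leaders of the injection class were metabolic and nuclear genes. Qdpr, which regenerates tetrahydrobiopterin for the synthesis of dopamine and serotonin, was 134, 167, 164 and 192 FPKM in Saline-Heroin and 237, 242, 200 and 200 in Saline-Saline, without overlap. Its self-administration groups were 200 ± 18.2 with heroin and 183 ± 22.2 with saline (SD, n = 4), and the difference was 0.56 ± 0.16 (adjusted p = 0.67). Qdpr is abundant in oligodendrocytes. Of 10 oligodendrocyte markers 2 were called lower after injection, against 1.77% of all genes. An unadjusted p of at most 0.05 was found for 3 of them, where 927 of all 15151 genes had one under 0.05. Their median effect was -0.35 after injection and -0.04 with self-administration. None of the 10 was called in the difference, but 4 were called higher without Saline-Heroin replicate 4 (median 0.46 against 0.31) and 1 without Saline-Saline replicate 3. Mmachc, which handles vitamin B12 (0.54, adjusted p = 0.67), and Abtb2, a BTB-domain protein (0.63, adjusted p = 0.691), were also called lower after injection alone. In Abtb2 the group apart was Saline-Saline, at 2.54 FPKM, against 1.83 in Saline-Heroin, 1.85 in Heroin-SA and 1.62 in Saline-SA. Called higher after injection were Uhrf1, a maintenance factor of DNA methylation (-1.02, adjusted p = 0.67), and Spata5l1, a ribosome biogenesis ATPase (-0.66, adjusted p = 0.67). Uhrf1 was 1.69 ± 0.211 FPKM in Saline-Heroin and 0.952 ± 0.259 in Saline-Saline (SD, n = 4). With 1.95 in Heroin-SA and 2.28 in Saline-SA, Saline-Saline was again the group apart.

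**Figure D5:**
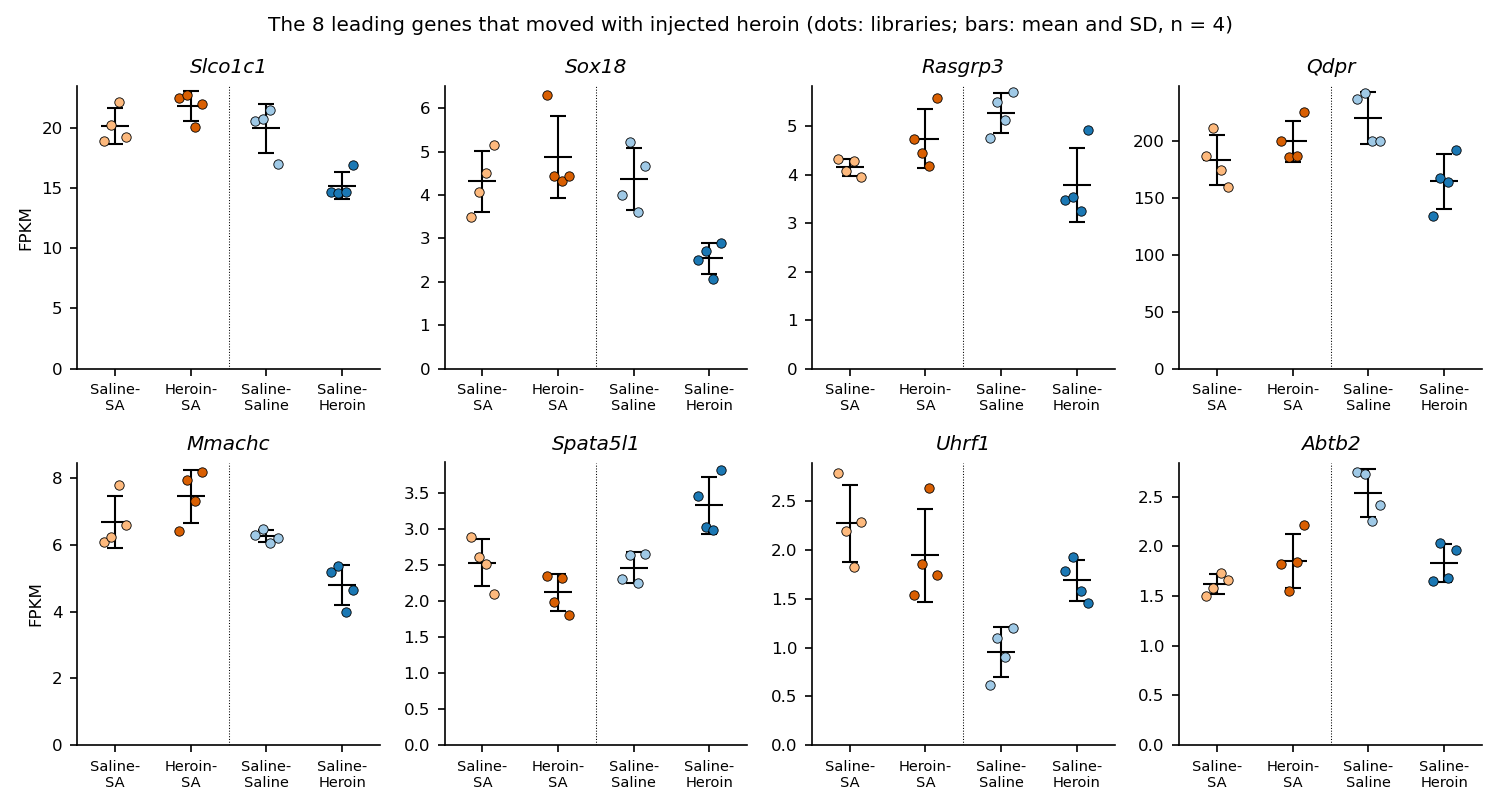
FPKM in each library (dots) with mean and SD (bars, 4 libraries per group) for the 8 genes of smallest p among those led by injection; the dotted line separates the 2 experiments and every axis starts at 0. Saline-Heroin and Saline-Saline overlap only for Rasgrp3, and Heroin-SA overlaps Saline-SA in all 8 panels. The class was formed on these same libraries, so this pattern is partly set by the choice of genes.

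In other lists, here and in the next paragraph, single members were called and the rest were not. Of all genes tested 4.38% were called in the difference, so a single call says little about its list. Among 8 opioid peptide and receptor genes Pomc, the precursor of β-endorphin, was lower after injection, at 1.85, 1.51, 1.60 and 0.876 FPKM against 2.0, 2.54, 2.24 and 2.26, and was 1.32 ± 0.131 in Heroin-SA and 1.2 ± 0.208 in Saline-SA (SD, n = 4). The difference was 0.77 ± 0.30 (adjusted p = 0.721), on a mean of 26.4 reads. Oprm1, the µ receptor, differed by 0.35 ± 0.57 (SE), Oprk1 by 0.17 and Penk by -0.13. Htr1b, a serotonin receptor, was 10.6, 14.5, 8.22 and 19.1 FPKM in Heroin-SA and 7.13, 9.81, 7.86 and 5.35 in Saline-SA, overlapping, and 11.5 ± 1.62 and 12.7 ± 2.86 with injected heroin and saline (SD, n = 4). It was the 1 called of 13 serotonin and dopamine receptors (0.87 ± 0.34, adjusted p = 0.721), and the call was lost without Saline-SA replicates 3 and 4 (0.69). Htr2a rose in both experiments, by 0.50 and 0.54, with a difference of -0.04 ± 0.24 (SE).

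Cx3cr1, the fractalkine receptor of microglia, was 9.95 ± 2.92 FPKM with injected heroin against 14.5 ± 3.05 with saline, and 8.20 ± 0.965 against 7.69 ± 1.10 with self-administration (SD, n = 4). Its difference was 0.65 ± 0.26 (adjusted p = 0.721), lost in 5 of 27 settings, and the other 9 microglial markers were not called. Nfil3, a repressor in the clock, was 1 of 18 clock genes called (0.60 ± 0.21, adjusted p = 0.691). Its effects were 0.24 and -0.36. The median difference of the clock genes was 0.05. An unadjusted limma p of at most 0.05 was found for 5 of the 18 with self-administration, 2 after injection and 2 in the difference. The light cycles differed between experiments but not within them, and their part in these values was not tested. Psmb8, an immunoproteasome subunit, was the 1 of 14 interferon-stimulated genes called (-0.87, adjusted p = 0.759), on a mean of 32.9 reads, and lost the call in 17 settings. No gene was called in the lists of inflammatory genes (9 tested), glucocorticoid response (13), glutamate receptors (22), interneuron and neuropeptide genes (12) or cholesterol synthesis (19), where none had an unadjusted p under 0.05 in the difference. In the other settings each of these lists had at most 2 calls.

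Immediate early genes, which mark recent neuronal activity, were in part lower with both kinds of heroin. After injection 10 of 19 were called lower, against 1.77% of all genes, and with self-administration 5 were, against 2.51%, while Homer1 was called higher with self-administration (0.59). None was called in the difference, and 1 was without Saline-SA replicate 1 or 2, Saline-Heroin replicate 2 or 3 or Heroin-SA replicate 3. Fos fell by 0.96 after injection and by 0.64 with self-administration on the log2 scale, Egr2 fell by 1.64 and 1.26, and Nr4a1 fell by 0.91 and 0.61, and their differences were 0.31 ± 0.36, 0.39 ± 0.64 and 0.30 ± 0.34 (SE). Arc fell by 1.19 after injection and had an effect of -0.55 with self-administration that was not called, and the difference, 0.64 ± 0.53 (SE), was not called either. Rats were killed at other times after their last drug in the 2 experiments, and what this adds was not tested.

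Potassium channels carry the repolarizing currents of neurons and glia. With self-administration 10 of 35 were called higher, against 4.09% of all genes, and after injection 3 were, against 1.29%, none lower in either. In the difference Kcnj10 alone was called, where 4.38% of all genes were. That count was 3 with the replicate block, without Saline-SA replicate 2 or without Saline-Heroin replicate 4, and 4 without Heroin-SA replicate 3. It was 0 without Saline-SA replicate 3, Saline-Saline replicate 1, Saline-Heroin replicate 1 or 3 or Heroin-SA replicate 2, and without Saline-SA replicates 3 and 4. Kcna2 had effects of 0.92 and 0.13 (difference 0.79 ± 0.42, SE) and Kcnj12 0.39 and 0.05 (0.34 ± 0.18). Kcnj4, Kcnh1 and Kcnma1 had an unadjusted p of at most 0.05 in both experiments with nearly equal effects, 0.37 and 0.41 in Kcnj4. The median effects were 0.28 and 0.17 and the median difference 0.07.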

How the data were processed

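RNA was sequenced from the NAc of 24 rats, and the 16 libraries used here were polyA-selected directional libraries. The authors deposited FPKM values per gene, made with fastp, HISAT2 and featureCounts on build rn6 per the submitters' processing notes; versions and the strand setting of the counting are not given in the sources used here, so genes with overlapping spans are uncertain. All values came out as whole reads (100.0% at a tolerance of 0.01) when gene length and depth were undone. Their use was limited to depth, to means of reads and to limma-voom with TMM scaling as an alternative. Genes with a mean of at least 0.5 FPKM over the 16 libraries were tested on log2(FPKM + 0.1) with limma 3.58.1 (R 4.3.3), trend on, 1 mean per group, without covariates. Fold changes on this scale understate the change of low genes. A call took an unadjusted p of at most 0.05 and a change of at least 1.3-fold; Benjamini-Hochberg values cover all genes tested, and p-values measure the spread between these libraries. The script was tested on simulated data. The members and lists were chosen with earlier results of these data known. Named were the 8 genes of smallest p in each class, among called genes with at least 1 FPKM, at least 20 mean reads and a proper symbol, and every called member of the lists; other list members given by value were picked for their role. Where a symbol had more than 1 ID, the ID with the higher mean was used. Alternatives were the pseudocount, the filter, the normalization, all 24 libraries in 1 fit, robust moderation, voom, a replicate block and leaving out each library; leaving out Saline-SA replicates 3 and 4 together, and dropping the fold limit, were chosen after seeing the data. The 8 libraries of other groups entered only the fit of all 24. Precision rests on 12312878 to 18288437 reads on genes per library.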

Additional observations from a re-analysis of the deposited data

Results flagged for a closer look

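Tubd1 (0.96) and Cbx2 (-0.96 on the log2 scale) were the leading genes in which every library of one experiment moved one way and every library of the other the opposite way; in the test of the difference itself, limma's adjusted p was 0.44 and 0.563.

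In 14 places 1 library of a group of 4 stood apart from the others by more of the range than Dixon's limit allows, which chance does in about 1 in 20 groups, and 51 genes in 4 groups were looked at. Those in Heroin-SA were Sox18 at 6.3 FPKM in replicate 1, Hist1h2bg at 33.3 in replicate 3, and Ndrg1 at 85.9 and Flt1 at 11.1 in replicate 4. Those in Saline-SA were Nts at 37.4 and Apln at 11.4 FPKM in replicate 3 and Chordc1 at 22.8 in replicate 2. In Saline-Heroin they were Slco1c1 at 16.9 FPKM in replicate 4 and Pdia4 at 28.3 and Chordc1 at 35.1 in replicate 3. In Saline-Saline they were Tagln at 24.9 FPKM in replicate 4, Slc31a2 at 3.38 in replicate 3, and Dnajc3 at 13.4 and Psmb8 at 1.05 in replicate 2.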

How the results depend on the processing

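Of 1377 values of the 51 named genes over 27 alternatives, 1252 kept the call, 125 lost it and 0 reversed, and 30 genes kept it in all 27, among them all 24 leaders of the 3 classes. The leaders were picked by smallest p in these same libraries, so their keeping the call is partly set by that choice. Beyond 1.5 times the counts given in the report, opposite genes numbered 125 with a pseudocount of 1 and 348 with no filter, injection-led genes 107 and genes with an injection effect 767 with no filter, and genes with a self-administration effect 572 without Saline-SA replicates 3 and 4; the cause was not tested, beyond the added low genes when no filter is used. Leaving out 1 library at a time, the difference was called in 542 to 1000 genes (1000 without Heroin-SA replicate 3), the opposite class held 164 to 242, the self-administration-led class 169 to 510 (510 without Heroin-SA replicate 3, 339 and 343 without Saline-SA replicate 1 and 2) and the injection-led class 51 to 135 (112 and 135 without Saline-Heroin replicate 2 and 4). The self-administration effect was called in 744 to 1400 genes and the injection effect in 359 to 683. At an adjusted p under 0.05 the difference had 0 to 1 genes; the 1 was SNORD19 without Heroin-SA replicate 4 (adjusted p = 0.00146), which has a mean of 5.81 reads and 0 in the other 3 Heroin-SA libraries. With no fold limit 993 genes passed.

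With the replicate block the difference was called in 595 genes, the self-administration effect in 898 and the injection effect in 429, and the classes held 180, 203 and 61 genes. Libraries of the same number did not deviate together (r of -0.0794 to 0.0549), so the numbers do not pair the samples. The 83 opposite genes with a mean under 20 reads are the ones most limited by depth.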

Other observations

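Pspc1, Gjb6 and Cryl1, all called lower in the difference, lie within 0.713 Mb of chromosome 15 (rn6), an arrangement seen only after their values were known. The 3 other genes tested in that span were not called. Zmym5, at 0.08, and Zmym2, at 0.06, lie beside Pspc1, and the connexin gene Gjb2, at -0.84, beside Gjb6. Pspc1 differed from Cryl1 in its injection effect, at 0.06 against 0.29 on the log2 scale.

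Of the 664 genes called in the difference, 83.6% were protein coding, against 91.6% of all genes tested, and 106 had a mean of fewer than 20 reads. The difference between Saline-SA and Saline-Saline was larger than that between Heroin-SA and Saline-Heroin in 154 of the 220 genes led by self-administration, 116 of the 197 opposite genes and 32 of the 71 led by injection, beside 8766 of the 15151 tested. These counts use the libraries that formed the classes and are given as a description.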
